A study of Homo sapiens with 4 samples.

Results

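The HOX gene clusters were examined in ATAC-seq peak lists of HepG2 cells, a human liver cancer line. The 38 member genes lie in the HOXA cluster on chromosome 7 (10 genes), the HOXB cluster on chromosome 17 (10 genes), the HOXC cluster on chromosome 12 (9 genes) and the HOXD cluster on chromosome 2 (9 genes). A peak was counted as a HOX peak when it overlapped the body of a member gene or the 10 kb on either side of it, in GENCODE 44 coordinates on hg38. These windows covered 524 kb and held 67 of 170371 deposited peaks. Joined across libraries wherever they overlapped by at least 1 bp, the HOX peaks fell into 41 of 80551 regions, 16 in HOXA, 6 in HOXB, 8 in HOXC and 11 in HOXD.

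HOX genes encode homeodomain transcription factors that give cells their position along the body axis. Within a cluster the genes are ordered on the chromosome as they are used along the axis, from anterior (low numbers) to posterior (high numbers). In tissues that do not use them, the clusters are textbook domains of H3K27me3, the repressive histone mark that EZH2, the catalytic subunit of the Polycomb repressive complex, writes. Tazemetostat inhibits EZH2, so the clusters are a natural place to ask whether chromatin became more accessible.

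The series held 2 control libraries of HepG2 cells and 2 libraries of HepG2 cells given 5 µM tazemetostat for 48 h, each made from 50000 cells by the Omni-ATAC protocol, in which a transposase cuts and tags open DNA. The labels call the controls untreated, and whether they received the solvent is not given in the sources used here. No source says whether the replicates were separate cultures, so every p-value measures only the spread between these libraries, which may be technical. All samples were of 1 cell line, labelled wild type, so they show 1 genetic background.

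Mapped tags ranged from 17191428 to 26564400 and deposited peaks from 26133 to 55313, at 26133 and 34768 for the controls, then 55313 and 54157 for tazemetostat. The fragment length recorded in the peak lists was 200 bp in both controls and 144 bp in both tazemetostat libraries, so it cannot be told apart from the treatment. HOMER kept a peak only if it reached 4 times the tags of the surrounding 10 kb, and this local filter removed 77.0% and 80.0% of the putative peaks in the controls against 62.7% and 70.9% under tazemetostat. A position without a peak therefore has no value here, which is different from a value of 0, and a gene in a broadly open stretch can lack a peak. As a check of the labelled cell type, 6 of 8 hepatocyte marker genes had a start inside a peak in at least 1 library (APOA1, APOB, SERPINA1, HNF4A and TTR in all 4, AFP in 2), whereas ALB and FOXA2 had none in any library. Among 2 endothelial and 3 fibroblast markers, a start lay in a peak for PDGFRB alone, in all 4 libraries.

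The sequences below show the DNA under the regions on which the results turn. Each is taken from the hg38 plus strand at the centre of the region, and capitals mark CpG dinucleotides, the sites of DNA methylation. The first is the only HOX gene start called in every library, at HOXA4 (chr7:27130798-27131097), and it held 27 CpGs. It ends short of the HOXA4 transcript and so lies in the promoter.

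HOXA4 start: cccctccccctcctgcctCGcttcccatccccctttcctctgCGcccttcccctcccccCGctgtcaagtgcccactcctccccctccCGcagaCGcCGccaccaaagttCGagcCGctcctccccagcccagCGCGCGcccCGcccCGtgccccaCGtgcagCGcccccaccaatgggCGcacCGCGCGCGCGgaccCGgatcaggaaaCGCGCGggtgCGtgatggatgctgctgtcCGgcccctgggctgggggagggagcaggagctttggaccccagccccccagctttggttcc

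The second is the region with the highest tag counts of all HOX regions, upstream of HOXD1 in an intron of the long noncoding RNA gene HAGLR (chr2:176187208-176187507). It held 2 CpGs and was the poorest of the 41 in G and C.

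HOXD1 upstream: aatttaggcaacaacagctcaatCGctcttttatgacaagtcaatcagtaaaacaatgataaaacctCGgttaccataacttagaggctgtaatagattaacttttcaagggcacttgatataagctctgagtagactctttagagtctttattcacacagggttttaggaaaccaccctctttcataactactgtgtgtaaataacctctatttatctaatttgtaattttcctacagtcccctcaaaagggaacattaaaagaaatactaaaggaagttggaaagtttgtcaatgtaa

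The next pair were called under tazemetostat in both libraries and lacked a peak in the controls. One is in an exon of the long noncoding RNA gene LINC03057 (chr17:48636563-48636862, 28 CpGs). It lies beyond HOXB7, whose annotated gene also spans HOXB8 and HOXB9. The other is in an intron of HOXD10 (chr2:176114250-176114549, 7 CpGs).

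HOXB7 upstream: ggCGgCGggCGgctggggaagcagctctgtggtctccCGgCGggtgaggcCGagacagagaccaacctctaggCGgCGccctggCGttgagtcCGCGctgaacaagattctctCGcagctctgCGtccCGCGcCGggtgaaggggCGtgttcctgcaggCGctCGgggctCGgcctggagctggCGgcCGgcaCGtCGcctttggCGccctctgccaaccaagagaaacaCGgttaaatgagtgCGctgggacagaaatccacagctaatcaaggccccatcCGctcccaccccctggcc
HOXD10 intron: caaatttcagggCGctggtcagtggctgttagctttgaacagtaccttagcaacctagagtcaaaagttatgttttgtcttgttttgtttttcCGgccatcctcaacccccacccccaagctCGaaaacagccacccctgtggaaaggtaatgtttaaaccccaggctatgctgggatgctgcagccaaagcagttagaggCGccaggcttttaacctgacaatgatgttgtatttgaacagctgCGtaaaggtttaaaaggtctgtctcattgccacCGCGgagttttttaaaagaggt

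The last pair were chosen after their values were seen. They are the region over starts of the antisense RNA gene HOXA-AS2 inside HOXA3 (215 bases, chr7:27122344-27122558) and the only HOXC region called in more than 1 library, which overlaps no annotated gene (chr12:53961415-53961714).

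HOXA-AS2 starts: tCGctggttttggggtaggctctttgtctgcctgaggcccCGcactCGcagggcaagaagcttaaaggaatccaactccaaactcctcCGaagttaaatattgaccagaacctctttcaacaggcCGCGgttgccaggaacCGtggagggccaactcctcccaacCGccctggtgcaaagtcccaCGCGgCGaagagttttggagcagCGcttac
HOXC12 downstream: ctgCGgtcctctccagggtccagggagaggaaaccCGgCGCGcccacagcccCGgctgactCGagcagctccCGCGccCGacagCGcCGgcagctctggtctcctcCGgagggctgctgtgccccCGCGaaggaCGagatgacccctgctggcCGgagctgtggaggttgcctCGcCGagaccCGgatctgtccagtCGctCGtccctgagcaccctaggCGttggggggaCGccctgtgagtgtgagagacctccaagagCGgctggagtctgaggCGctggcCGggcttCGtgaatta

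To ask whether EZH2 inhibition opened the clusters, HOX peaks were first counted in each library. Controls 1 and 2 held 10 and 11 HOX peaks, tazemetostat libraries 1 and 2 held 27 and 19, so both treated libraries lay above both controls. The mean was 10.5 ± 0.707 in the controls and 23.0 ± 5.66 under tazemetostat (SD, n = 2), a ratio of 2.19. The two-sided exact permutation test gave p = 0.3333, the smallest value that 2 libraries against 2 can give. All peaks rose as well, and per 10000 peaks of its own library HOX peaks numbered 3.83 and 3.16 (controls) against 4.88 and 3.51 (tazemetostat) (p = 0.6667 by the same exact test), with overlapping groups. When the same number of peaks, the 26133 with the highest tag counts, was taken from every library, the HOX windows held 10, 9, 10 and 9 peaks, and the difference between the groups was 0. Whether a gain reflects more cells with an open site or a more open site in each cell cannot be told apart in bulk libraries.

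By cluster, HOXA held the most peaks in every library, with 5 and 6 in the controls and 12 and 8 under tazemetostat. HOXB had 1 peak in each control and 5 and 2 under tazemetostat, and HOXC had 1 in each control and 4 in each tazemetostat library. HOXD had 3 in each control, then 6 and 5. In all 4 clusters both tazemetostat counts exceeded both control counts, each with the same exact p = 0.3333. Relative to the rise of all peaks this held for HOXC alone. It had 0.383 and 0.288 peaks per 10000 peaks of its library in the controls against 0.723 and 0.739 with tazemetostat (exact permutation p = 0.3333). On that scale the groups overlapped in the other 3 clusters, and the group means were 1.82 and 1.82 for HOXA, 0.335 and 0.637 for HOXB, and 1.01 and 1.00 for HOXD. The HOXC difference rests on few peaks that mostly did not recur. Only 1 HOXC region was called in both tazemetostat libraries, and it also had a peak in the second control. Per megabase of window, controls had 19.1 and 21.0 HOX peaks and tazemetostat libraries 51.5 and 36.2. The windows drawn in the same way around all protein-coding genes held 12.5, 16.4, 25.3 and 24.4 peaks per megabase in the same order of libraries. HOX windows thus had more peaks per megabase in each of the 4 libraries, but they are also far denser in genes. They hold 38 genes in 524 kb, whereas the coding windows cover 1513 Mb for 20033 genes. Counted by gene, a smaller share of HOX windows than of coding windows held a peak in each library, as given below.

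**Figure D1:**
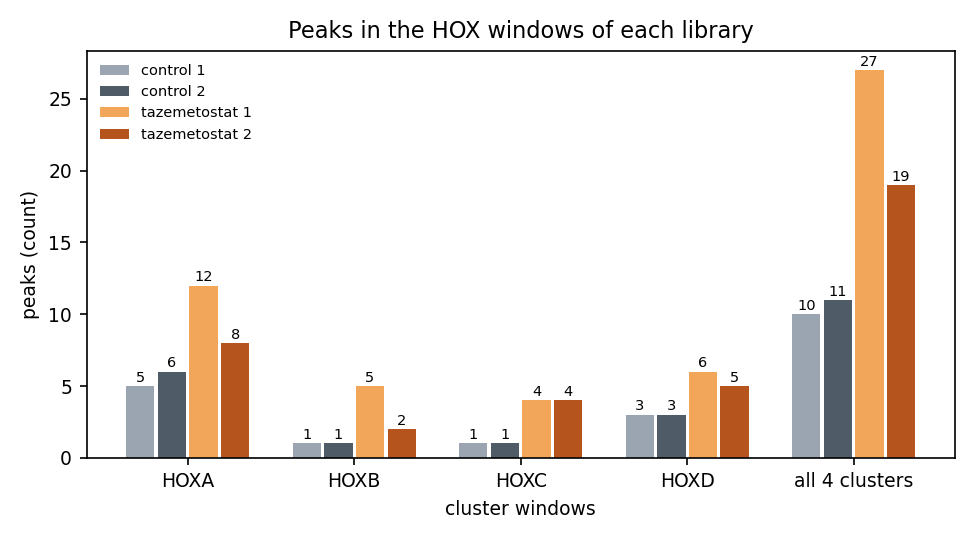
Number of deposited peaks (y axis, count) in the windows of each HOX cluster and in all 4 together (x axis), with 1 bar for each of the 2 control and 2 tazemetostat libraries. The totals were 10, 11, 27 and 19 in that order, and each cluster's tazemetostat bars stand above its control bars.

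HOX peaks were about as long as all peaks, and most stood only just above their surroundings. The median length of a HOX peak was 384.5 and 379.0 bp in the controls and 375.0 bp in both tazemetostat libraries. Over all peaks the medians lay between 378.0 and 388.0 bp. The minimum length of 300 bp was found in 3 of 10 and 5 of 11 HOX peaks in the controls. Under tazemetostat it was found in 12 of 27 and 9 of 19. Among all peaks the share at 300 bp was 43.8% and 36.9% in the controls and 34.9% and 33.6% under tazemetostat. The length difference of -6.75 bp between the group means (exact permutation p = 0.3333) turned to 98.3 bp when the same number of peaks was taken from each library. The fold over the surrounding 10 kb had a median among HOX peaks of 4.36 and 4.58 (controls) against 5.28 and 4.90 (tazemetostat), a difference of 0.620 (exact permutation p = 0.3333) that became 1.38 with the same number of peaks from each library. Over all peaks the medians were 5.92, 5.65, 6.09 and 5.75 in the same order, so HOX peaks stood lower above their surroundings than the typical peak in all 4 libraries. No control HOX peak and 2 HOX peaks in each tazemetostat library reached 8-fold, whereas between 26.2% and 32.3% of all peaks did.

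**Figure D2:**
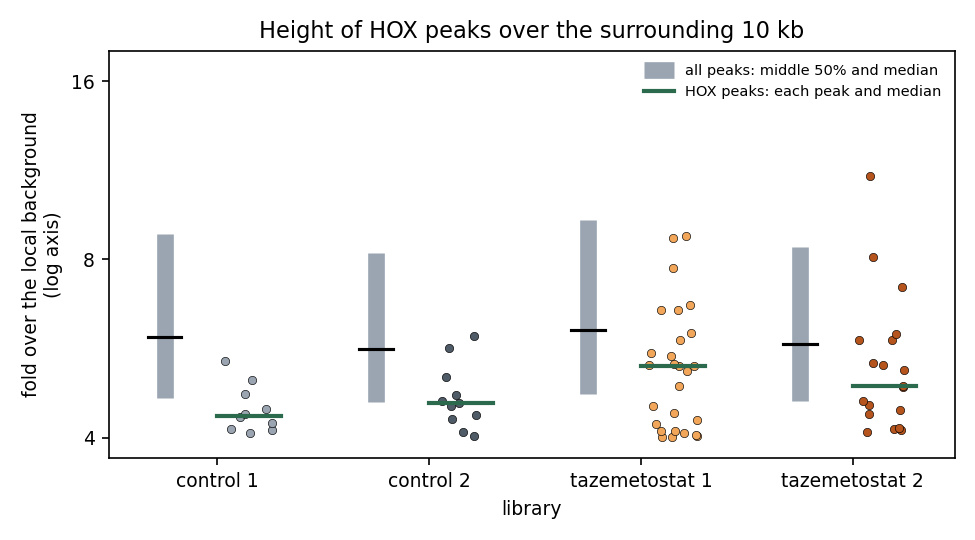
Fold of each HOX peak over the surrounding 10 kb (points, log axis) by library, with the HOX median as a green line, beside a grey bar for the middle 50% of all peaks with their median as a black line. HOX medians of 4.36, 4.58, 5.28 and 4.90 lie below the medians over all peaks of 5.92, 5.65, 6.09 and 5.75.

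The normalised tag count is the number of tags in a peak per 10 M mapped tags. Summed over HOX peaks it was 134 and 143 in the controls, then 415 and 295 with tazemetostat, a ratio of group means of 2.56 (exact permutation p = 0.3333). With the same number of peaks from each library the sums were 134, 128, 253 and 206, so the difference fell from 216 to 98.8. The covered length moved with it, from 4.25 and 4.34 kb to 10.6 and 7.50 kb. Per kilobase covered, the HOX peaks held 31.6 and 32.9 in the controls and 39.1 and 39.3 under tazemetostat. The median HOX peak held 11.9, 11.8, 10.6 and 12 in the 4 libraries, so the groups overlapped at the level of the typical peak. Over all peaks the medians were 12.2, 12.2, 14.6 and 12.8 in the same order. Tags in peaks rose over the whole genome as well. All peaks together held 742864 of 17191428 and 1353842 of 23800380 mapped tags in the controls. Under tazemetostat they held 2283279 of 19844503 and 2605603 of 26564400.

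Few regions were called repeatedly. Of the 41 HOX regions, 3 were called in all 4 libraries (7.32%), against 20.4% of all regions in the genome. A further 5 were called in both tazemetostat libraries and 1 control (background 13.2%), and 3 in both tazemetostat libraries and no control (background 13.7%). The largest class was the 21 regions called in a single tazemetostat library (background 33.6%), 15 of them in the first and 6 in the second. No region was called in both controls and neither tazemetostat library (background 0.449%), and 7 were called in 1 control library alone (background 12.6%). Among the regions called under tazemetostat alone, 1 in HOXD lies at the edge of a window and counts a peak that lies just outside the window. A region inside HOXD3 and a region in HOTTIP near HOXA13 made up the 2 HOX regions outside all of these classes. The HOXD3 region was called in both controls and the first tazemetostat library. The HOTTIP region was called in the second library of each group. In all, 28 regions rested on 1 library, and 19 of these were 300 bp long. The plot of called regions along the clusters shows these as small, scattered circles.

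**Figure D3:**
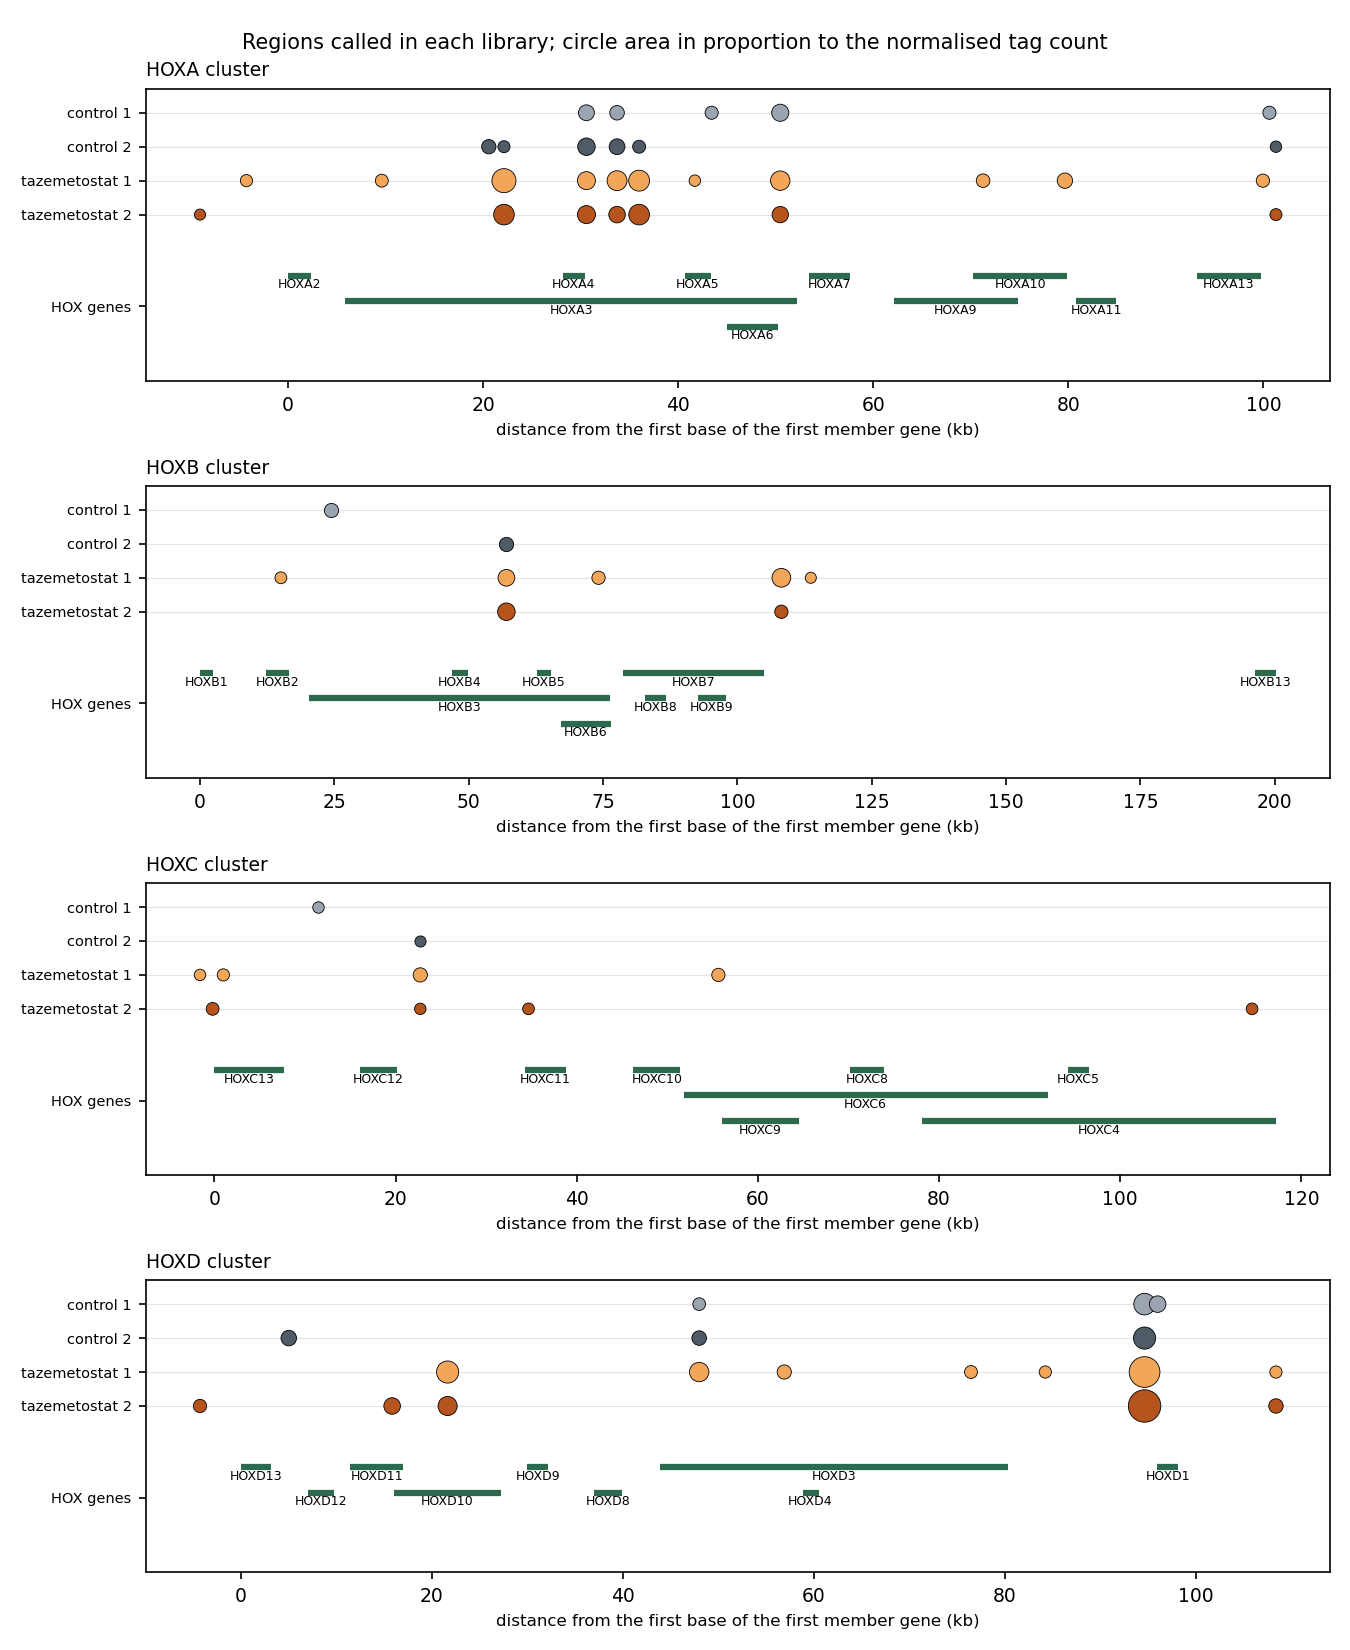
Each HOX cluster drawn to scale, with distance from the first base of its first member gene in kb on the x axis and 1 line per library; each circle is a called region, its area in proportion to the normalised tag count, and green bars are the member genes. Of the 9 regions called in 3 or 4 libraries, 5 lie in HOXA between HOXA3 and HOXA6, 2 in HOXD and 1 each in HOXB and HOXC, and 7 of the 8 HOXC regions were called in 1 library.

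The HOXA cluster held 5 of the 9 regions called in 3 or 4 libraries, and all 5 lay within HOXA3, HOXA4 and HOXA6. Of these, 2 were nearest to a start of HOXA3 and 3 to a start of HOXA4 or HOXA6. The region over the HOXA4 start (chr7:27130638-27131257) held 14.5 and 17.6 normalised tags in the controls and 18.6 and 18.8 under tazemetostat. The region 3043 bp upstream of it, in an exon of HOXA-AS2 and an intron of HOXA3 (chr7:27133823-27134350), held 12.2 and 14.3 in the controls and 22.7 and 15.8 under tazemetostat. In both, the tazemetostat values lay above the control values, as they did in 81.6% of all regions with 1 peak in each library.

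Elsewhere in HOXA the control calls were partial. The region over HOXA-AS2 starts inside HOXA3 (chr7:27122172-27122814) had no peak in the first control, 8.40 in the second, and 33.3 and 24.5 under tazemetostat. A region in an intron of HOXA3 (chr7:27135908-27136786) lay between HOXA4 and HOXA5, which the long annotated HOXA3 gene spans. This region also had no peak in the first control and 9.66 in the second. Under tazemetostat it held 25.2 and 24.5, and each library called a pair of peaks there. The lengths differed with the values, since the second control's peak was 300 bp long in both regions while the called lengths under tazemetostat were 642 and 453 bp over HOXA-AS2 and 697 and 756 bp in the HOXA3 intron. The region at the HOXA6 start (chr7:27150539-27151092) held 16.9 in the first control, no peak in the second, and 21.7 and 15.4 under tazemetostat, so its values overlapped. The regions nearest to the posterior genes HOXA9, HOXA10 and HOXA13 were called in no more than 2 libraries each, between 7.56 and 13.6.

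In the HOXD cluster, the region 893 bp upstream of HOXD1 (chr2:176186940-176187775) carried the highest value of any HOX region in every library. It held 26.8 and 28.2 normalised tags in control libraries 1 and 2 and 54.4 and 60.6 in tazemetostat libraries 1 and 2, a mean of 27.5 ± 0.990 against 57.5 ± 4.38 (SD, n = 2). These rested on 46, 67, 108 and 161 tags. Its length differed little between libraries (732, 758, 729 and 798 bp), while its fold over the surroundings was 4.34 and 4.52 in the controls and 6.57 and 5.86 under tazemetostat. Over the HOXD1 start itself a separate peak was called in the first control alone, with 15.7.

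Under tazemetostat alone, the HOXD10 intron region (chr2:176114127-176114672) held 28.2 and 21.1 in the tazemetostat libraries, 56 tags in each, and HOXD10 is a posterior gene of the cluster, used in limb and caudal spinal cord. The HOXD3 intron region (chr2:176140382-176141085), between HOXD8 and HOXD4, held 9.31 and 12.2 in the controls. It held 21.7 in the first tazemetostat library and was not called in the second. Besides the HOXD1 start, 6 HOXD regions were called in 1 library, between 8.57 and 15.8.

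In the HOXB cluster, 1 region was called in 3 libraries, in an intron of HOXB3 between HOXB4 and HOXB5 (chr17:48585302-48585783). It had no peak in the first control, 11.8 in the second and 16.1 and 17.7 under tazemetostat. The region 2953 bp upstream of the farthest annotated HOXB7 start (chr17:48636525-48636900) was called under tazemetostat alone. It held 20.2 and 10.2, with folds of 8.71 and 4.62 and lengths of 375 and 300 bp. The annotated HOXB7 gene spans HOXB8 and HOXB9, so this region lies between HOXB9 and HOXB13, 10167 bp from the HOXB9 start. The other 4 HOXB regions were each called in 1 library, between 7.05 and 11.6. By the nearest annotated start they were near HOXB2, HOXB3, HOXB6 and HOXB7, the last also lying beyond HOXB9. In the HOXC cluster, 1 region was called in 3 libraries (chr12:53961322-53961806), between HOXC12 and HOTAIR, a long noncoding RNA gene of the cluster, with no peak in the first control, 7.14 in the second, and 11.6 and 7.53 under tazemetostat. The other 7 HOXC regions were each called in 1 library, between 7.56 and 10.1.

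**Figure D4:**
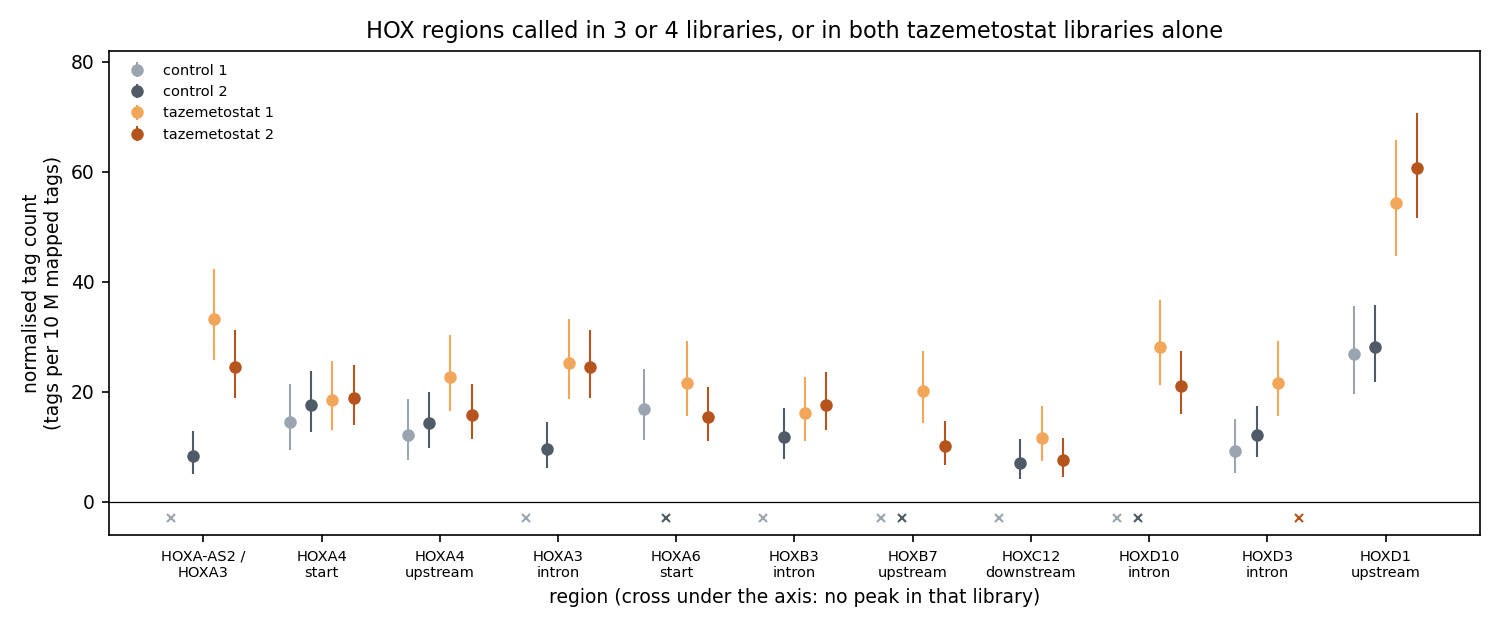
Normalised tag count (y axis, tags per 10 M mapped tags) of 11 HOX regions called in 3 or 4 libraries or in both tazemetostat libraries alone, with 1 point per library, 95% Poisson intervals for counting error, and a cross under the axis where a library had no peak. The region upstream of HOXD1 stands apart, at 26.8 and 28.2 in the controls and 54.4 and 60.6 under tazemetostat, while at the HOXA4 start the 4 values lie between 14.5 and 18.8.

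The values of regions with exactly 1 peak in each library were compared with limma on log2(normalised tag count + 1), fitted over 15383 regions of the genome. Only 3 HOX regions could enter. The region upstream of HOXD1 rose by 1.04 on this scale (SE 0.29, limma Benjamini-Hochberg adjusted p = 0.0157). The region upstream of HOXA4 differed by 0.49 (SE 0.30, adjusted p = 0.164) and the HOXA4 start by 0.21 (SE 0.30, adjusted p = 0.514), and neither passed 0.05. So 1 of 3 HOX regions was called higher and 0 lower, where 42.7% of all tested regions were called higher and 0.247% lower. In this fit the HOXD1 region was also the only 1 of the 3 with an unadjusted p below 0.05.

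The whole genome moved upward in these libraries, with a median difference of 0.70 over all tested regions. The HOXD1 region lay at percentile 83.9 of these differences, the region upstream of HOXA4 at 26.3 and the HOXA4 start at 9.63. When each library was centred on its own median the differences became 0.28 for HOXD1 (limma adjusted p = 0.721), -0.27 upstream of HOXA4 and -0.55 at the HOXA4 start, with no HOX region called, and over all regions 0 were called in either direction by limma. With edgeR's TMM factors 23 regions were higher and 174 lower, and none was a HOX region. With DESeq2's size factors 3 were higher and 106 lower, again none in HOX. The HOXD1 call was also lost without the first tazemetostat library (difference 1.11, adjusted p = 0.224) and without the second (0.96, adjusted p = 0.111), where the lone treated library is assumed to vary like the controls, and no region of the genome was called by limma in either of these fits. Whether the common shift is biological or technical was not tested.

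HOX gene starts were seldom inside a peak. Of the 38 genes, 3 and 1 had an annotated start in a peak in the controls and 2 and 1 under tazemetostat, whereas the share over all 20033 coding genes was 34.0% and 40.8% in the controls and 52.5% and 49.7% under tazemetostat. HOXA4 was covered in all 4 libraries. HOXA5 and HOXD1 were covered in the first control alone and HOXA6 in the first tazemetostat library alone, although its peak in the first control ended 12 bp from the start and that in the second tazemetostat library 114 bp from it. The other 34 genes had no start in a peak in any library, which included every HOXB and HOXC gene. The hepatocyte genes ALB and FOXA2 lacked one as well.

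Starts rich in CpG are usually open in any cell type, so the same shares were taken over genes with at least 15 CpGs from 250 bp before to 50 bp after the annotated gene start. Such a start was found in 21 of 38 HOX genes and in 57.1% of coding genes, among them HOXA13 with 44 CpGs, HOXD1 with 36 and HOXD8 with 34. Over CpG-rich coding genes the share with a start in a peak was 44.2% and 53.2% in the controls and 67.3% and 63.3% under tazemetostat. Over the 21 CpG-rich HOX genes it was 14.3%, 4.76%, 9.52% and 4.76% in the same order. All 4 HOX genes that ever had a covered start were CpG-rich.

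**Figure D5:**
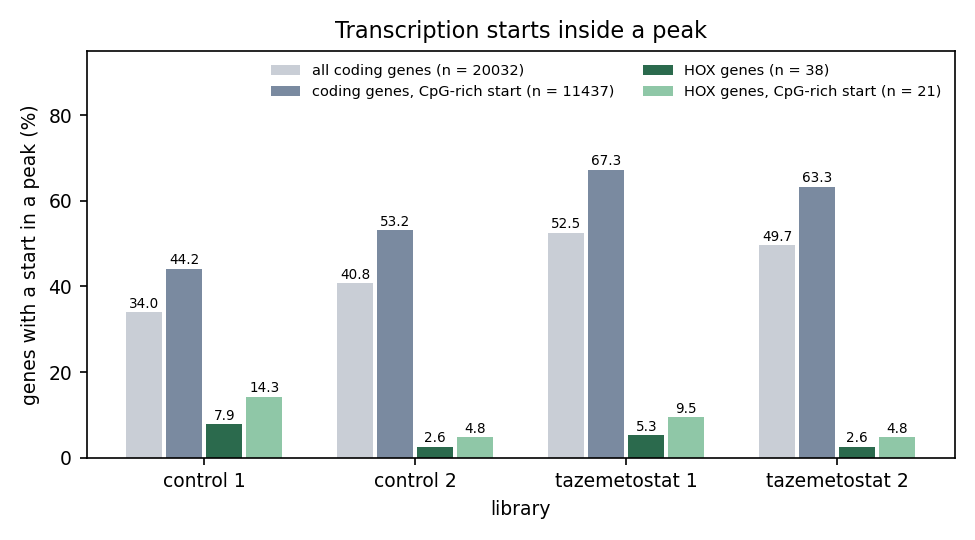
Share of genes with an annotated transcription start inside a peak (y axis, percent) in each library, for all coding genes, coding genes with a CpG-rich start, HOX genes and HOX genes with a CpG-rich start. HOX shares lie between 2.63% and 14.3% in every library, below the coding shares of 34.0% to 67.3%.

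Distances from starts to peaks were shorter under tazemetostat for HOX genes and for coding genes in general. The median distance from a HOX gene's nearest start to the nearest peak was 22237.5 and 11499.5 bp in the controls and 5003 and 8350.5 bp under tazemetostat, while over all coding genes it was 5670 and 1593 bp, then 0 and 14 bp. For single genes the groups could overlap, as for HOXB13, a posterior gene, at 66797 and 10038 bp in the controls and 49872 and 50019 bp under tazemetostat, and for HOXD4, at 10679 and 10785 bp in the controls and 1723 and 35390 bp under tazemetostat. Both were chosen after their values were seen. A peak within 1 kb of a start was found for 6 and 2 genes in the controls and 11 and 7 under tazemetostat, against 41.4% and 48.4% of coding genes in the controls and 60.7% and 57.5% under tazemetostat. In any library 15 of 38 HOX genes were reached within 1 kb, against 65.9% of coding genes. Of the 38, 9 were reached under tazemetostat and in no control (13.4% of coding genes), and 1 in a control and not under tazemetostat (1.83% of coding genes). HOXA4 and HOXD1 were reached in all 4 libraries. HOXC13, a gene of hair and nail differentiation, had its nearest peak at 803 and 45 bp in the tazemetostat libraries and at 11296 and 22675 bp in the controls. The tazemetostat peaks were different regions on opposite sides of the start, each called in that library alone. The first lay inside the gene, with 8.57 normalised tags, and the second upstream, with 9.41. HOXA10, HOXB2, HOXC9 and HOXD10 came within 1 kb in 1 tazemetostat library and no control, at 113, 180, 272 and 48 bp. HOXA13 was reached at 14 bp in the first tazemetostat library and at 683 bp in the first control.

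Counted over whole windows, 33 of 38 genes had a peak in at least 1 library, against 86.8% of coding genes. Peaks under tazemetostat but in no control were found for 15 HOX genes (12.5% of coding genes), and the reverse for 0 (1.47% of coding genes). By library, 13, 15, 29 and 22 HOX windows held a peak, against 63.1%, 69.1%, 81.8% and 79.9% of coding windows. The 5 genes with none were HOXB1, HOXB9, HOXB13, HOXC5 and HOXC8. Windows of neighbouring genes overlap, so these genes share peaks and are not independent.

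By sequence, the central 300 bp of HOX regions had a median GC content of 60.3% and 16 CpGs, against 52.3% and 5 CpGs over 80537 regions. At least 15 CpGs were present in 22 of 41 HOX regions (53.7%), against 18.7% of all regions and 36.9% of regions called in all 4 libraries. HOXB regions were the richest, with a median of 21.5 CpGs, and HOXA regions the poorest, with 9.5. The core of the CTCF motif, CCANNAGGG on either strand, was present in 3 HOX regions (7.32%) and in 9.37% of all regions, and all 3 were in HOXC. In the HOXC12 downstream sequence printed above it reads CCCTGCTGG, the reverse complement, at chr12:53961558-53961566. CTCF is the insulator protein that divides HOX clusters into domains. The PBX-HOX site TGATTNAT was present in 0 HOX regions and in 2.96% of all regions, and the HNF4 sequence CAAAGTCCA in 1 HOX region and in 1.84% of all regions, both strands searched. A match or its absence describes these letters only.

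Other gene lists gave the surroundings and partners of the clusters, without a test of their difference from the HOX genes. The share of all coding genes with a start in a peak was 34.0% and 40.8% in the controls and 52.5% and 49.7% under tazemetostat. Of 11 neighbouring genes, 7 (SKAP2, HIBADH, TTLL6, CALCOCO1, SMUG1, MTX2 and LNPK) had a start in a peak in all 4 libraries, while SKAP1, PRAC1 and the HOX-related homeobox genes EVX1 and EVX2 had none in any. In the neighbours' windows 7 of 12 tested regions were called higher by limma and 0 lower, where 42.7% and 0.247% of all tested regions were. Among the TALE homeodomain proteins, which bind DNA together with HOX proteins, 5 of 9 genes had a covered start in some library, MEIS1 and MEIS2 among them in all 4. In their windows 5 of 8 tested regions were called higher and 0 lower, beside the same 42.7% and 0.247% over all regions. Of the 6 ParaHox genes, the sister family of HOX genes, PDX1 had a covered start in both tazemetostat libraries alone and GSX1 in the second control alone, and 0 of 2 tested regions were called.

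Among 13 long noncoding RNA genes of the clusters, the starts covered were 1 and 1 in the controls and 4 and 1 under tazemetostat. The shares over all coding genes were 34.0% and 40.8%, then 52.5% and 49.7%. Shares over all long noncoding RNA or miRNA genes were not taken, so these counts have no background of their own kind. HOXA-AS2 was covered in the second control and both tazemetostat libraries. HOTAIRM1, HOTTIP and HOXB-AS1 were covered in the first tazemetostat library alone and HAGLR in the first control alone, while HOTAIR was not covered in any library. None of the 6 miRNA genes, among them MIR10A, MIR10B and the MIR196 genes, had a covered start. In the windows of the long noncoding RNA genes the same 3 HOX regions were tested, and 1 was called higher.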

How the data were processed

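ATAC-seq peak lists of 2 control and 2 tazemetostat HepG2 libraries were used, each deposited per library. Per the submitters' processing notes and the study's methods, reads were trimmed with Trim Galore 0.6.6, aligned to hg38 with Bowtie2 2.3.5.1 and called with HOMER 4.11.1 (peak size 300, stitched into regions). The notes also name bcl2fastq. The file headers give an FDR of 0.001, at least 4-fold over 10 kb at a Poisson p-value of 1e-04, and tag thresholds of 14 or 16. The normalised tag counts deposited by the authors are a signal in tags per 10 M mapped tags. Multiplied by the header totals they gave whole tags, within 0.25 of a tag, in 100% of peaks. The deposited findPeaks score is a tag count and was not tested. The deposited fold over the local background is a ratio, and the local p-value was deposited as such and not used. The region length is in bp. Whether tags were shifted to the transposase cut site is not given in the sources used here. The extraction text describes a DNase step for tazemetostat-treated cells and is silent on the controls.

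Peaks were joined by 1 bp overlap (Python 3.11.15, pandas 2.3.3). Regions with 1 peak in each library were tested with limma 3.58.1 on log2(signal + 1), Benjamini-Hochberg threshold 0.05; edgeR 4.0.16 and DESeq2 1.42.0 on whole tags were alternatives. Values per library were compared by two-sided exact permutation tests. The code was tested on simulated data. Starts, exons and windows came from GENCODE 44. All 38 genes were accounted for; regions were named by a rule (per cluster the 3 highest called in all libraries, the 3 highest called under tazemetostat alone, every region called in controls alone, and limma calls), and regions called in 3 libraries were added after their values were seen. The members and lists were chosen with earlier results of these data known. Some values, among them those of 1 HOXD region, are not reported here.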

Additional observations from a re-analysis of the deposited data

How the results depend on the processing

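The limits are few libraries, a peak list with no value where no peak was called, and scaling to mapped tags. With the same number of peaks from every library the difference in HOX peaks became 0, the difference in median length became 98.3 bp, that in summed tags 98.8 and that in median fold 1.38, and the regions called under tazemetostat alone fell to 1, as they did with gene bodies alone. The difference in HOX peaks was 0.700 per 10000 peaks of the library, an alternative chosen after seeing the data. The HOX regions called higher were 0 after median centring with limma, with edgeR's TMM factors and with DESeq2. Gene bodies alone kept 2 tested HOX regions and left out the HOXD1 region, so its call could not appear there. When each library was left out, the limma difference of the HOXD1 region was between 0.96 and 1.11. The HOXA4 start changed sign after centring (-0.55), with TMM (-0.49) and with DESeq2 (-0.49), as did the region upstream of it (-0.27, -0.20 and -0.20). Regions called under tazemetostat alone ranged from 4 to 18 with a library left out, where fewer libraries had to meet the rule (7 without the second control, 10 and 18 without the first and the second tazemetostat library). Regions called in the controls alone, 0 with all libraries, were then 2, 5, 1 and 0 without control 1, control 2, tazemetostat 1 and tazemetostat 2. HOX genes with a covered start in any library numbered 0 at a local fold of at least 8, 15 within 1 kb, and between 2 and 4 with a library left out, the lowest without the first control. The cause of the other changes was not tested. Deviations from the group means were not correlated between libraries of the same replicate number (correlation -0.00246). This cannot show whether the libraries were made in pairs. With the replicate block limma called 1 HOX region higher, as without it (HOXD1 limma adjusted p = 0.0210). At a local fold of at least 8 no control HOX peak was left, so medians could not be compared. Of 56 alternatives of the main results, 40 kept the direction and, where tested, the call, with counts of regions or genes within 1.5 times; values of differences could still move, as the HOX peak difference did to 2.0 at a local fold of at least 8.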
